A study of Mus musculus with 8 samples.

Results

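The comparison described here set every exposure to T cell extracellular vesicles (EVs) against PBS in a mouse pancreatic cancer cell line. Its members are 6 EV libraries, 2 from each of 3 EV kinds, and 2 PBS libraries, which are all 8 libraries of the series. The 3 EV groups were weighted equally, so that the pooled log2 fold change of a gene is the mean of the 3 groups' log2 fold changes against PBS. Of 42687 genes in the count table, 12738 protein-coding genes passed the expression filter and were tested. An effect was counted as common to the EV kinds when it met 3 conditions. The pooled test gave an adjusted p under 0.05, each EV kind differed from PBS by at least 1.5-fold in the same direction, and all 6 EV libraries lay beyond both PBS libraries.

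The cells were a single clone of low immunogenicity, taken from KPCY mice. The alleles of these animals include Trp53LSL-R172H/+, Pdx1-Cre and Rosa26YFP/YFP, so that Cre under the Pdx1 promoter switches on mutant Trp53 and a yellow fluorescent reporter in pancreatic cells. The sample labels give the genotype of every library as WT. Cells received PBS, ATEVs at 15 µg/mL, NTEVs at 30 µg/mL or ATEVs at 15 µg/mL that had been pretreated with Baseline-ZERO DNase. The labels call NTEVs the EVs of non-activated T cells. They do not spell out ATEV, which is read here as its activated counterpart. The labels add an EV-DNA dose of 5 µg/mL after naming both the ATEV and the NTEV dose, in wording that can be read as applying to both or to NTEVs alone. Treatment followed an overnight incubation, cells were harvested the next day and reseeded, and the cycle was repeated 8 times. All libraries, PBS included, share the clone and the repeated passage, and none shows what an untouched culture expressed.

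EVs are membrane-bound particles that carry proteins, lipids, RNA and DNA from the cell that released them to cells that take them up. A cell that senses foreign or misplaced nucleic acid, or that meets interferon, switches on interferon-stimulated genes: enzymes and GTPases that restrict viruses and intracellular parasites, and the machinery that loads peptides onto MHC molecules. Tumour cells with little of this programme display few antigens to T cells.

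Gene counts per library ranged from 34385326 to 52451398. Levels are given as CPM, counts scaled to library size with TMM factors. The line's own epithelial and ductal markers were present, with Krt18 at 2409 and 2200.5 CPM with PBS and 1592 to 2246 with EVs. Summed over 12 such markers, the level was 10367 to 11264 CPM with PBS and 8957 to 11934 with EVs. Of 17 T cell markers, Cd2, Cd5, Cd8a, Ifng and Il2ra had 0 counts in all 8 libraries, and Cd3d, Cd3e, Cd3g, Cd4 and Cd8b1 had at most 3 counts in any library. The 14 of them that are annotated as protein-coding summed to 4.23 and 4.71 CPM with PBS and 2.16 to 6.55 with EVs, nearly all from Lck at 3.89 and 4.25 with PBS and 1.99 to 6.35 with EVs. Trac, a T cell receptor constant gene outside the protein-coding class, had 165 to 332 counts in every library, PBS included. Markers of B and myeloid cells summed to at most 5.95 CPM, those of fibroblasts and endothelium to at most 10.9 CPM, and those of acinar and endocrine cells to at most 2.81 CPM in any library. The filter left 1 of the 17 T cell markers to test, Lck, and 2 of 11 for B and myeloid cells. It left 3 of 11 for fibroblasts and endothelium and 2 of 8 for acinar and endocrine cells. No tested member of these 5 lists was called by edgeR. By DESeq2, as by edgeR's p before adjustment at a threshold of 0.05, 1 of the line's own 12 markers was higher and 0 of the others tested.

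The PBS libraries stood apart from all EV libraries in features that the treatment labels do not name. Of 1148 pseudogenes tested, 286 were called (24.9%), 107 higher and 179 lower, against 4.80% of protein-coding genes. Gm10736 was at 2.39 and 2.37 CPM with PBS and 18.8 to 25.2 with EVs, and Gm13050 at 34.5 and 30.2 with PBS and 1.23 to 1.82 with EVs. Gm28437, whose sequence words all occur in mitochondrial transcripts, was at 24.3 and 10.8 CPM with PBS and 0.121 to 0.274 with EVs. In these pseudogenes each EV library lay on the same side of PBS by a wide margin, whichever EV kind it had received. Pooled changes also moved with the GC content of the transcript, with a Spearman rho of 0.42 across 10878 protein-coding genes with an average log2 CPM of at least 1, while the difference between the PBS libraries gave 0.035. Genes share libraries and are not independent replicates, so these values are descriptions. All PBS libraries lie on one side and all EV libraries on the other, so a treatment effect and any difference in how the PBS libraries were made or processed cannot be told apart. The comparison was therefore also fitted with an offset for GC content.

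In the pooled comparison, 345 protein-coding genes were called higher with EVs (2.71% of those tested) and 266 lower (2.09%) by edgeR's quasi-likelihood test at an adjusted p under 0.05. The change was at least 2-fold for 182 of the rises and 48 of the falls. Before adjustment, 1683 of the 12738 genes were higher and 1663 lower at p under 0.05. DESeq2 called 1124 higher and 728 lower. Of all 12738, 6617 had a pooled change below 0. All 6 EV libraries lay above both PBS libraries for 1652 genes (13% of those tested) and below both for 1908 (15%). Effects common to the EV kinds were found for 168 genes in the higher direction (1.32%) and for 114 in the lower (0.895%). Of the 11895 genes that met the filter's minimum of 0.239 CPM in both PBS libraries, 299 were called higher and 137 were common rises. The common rises were larger, with a median log2 fold change of 1.49, than the common falls, with a median of -0.89, against -0.018 over all protein-coding genes tested. Just inside the 1.5-fold rule, the smallest of the 3 changes was 0.59 for Cntnap1 and -0.59 for Bpgm. Just outside, it was 0.58 for Itpkb and -0.58 for Prkg2.

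The number of calls rested on having both PBS libraries. Without PBS library 1, the test called 4 genes higher and 4 lower. Without PBS library 2, it called 6 higher and 3 lower. Leaving out an EV library gave 383 higher and 264 lower without ATEV library 1, 215 and 108 without ATEV library 2, and 246 and 136 without NTEV library 1. The counts were 124 and 37 without NTEV library 2, 178 and 83 without DNase-treated ATEV library 1, and 114 and 36 without DNase-treated ATEV library 2. Of 97 called genes named in the text, Lars2, Lypla1, Vamp7, Psmb8, Casp1 and Ltbp2 kept their call without either PBS library and Ehf without PBS library 1. The other calls were lost each time, with the direction kept. Of the 97, 45 kept their call whichever EV library was left out, 65 with the offset for GC content and 56 when protein-coding genes were fitted alone. Of the 32 calls lost with the offset, 20 had a change within 1.5 times of that without it. The offset made the change smaller by over 1.5 times for 14 named genes, Ap1s2 and Cav2, which kept their calls, and Tmed5, Vbp1, Cdc42, Sdcbp, Hspg2, Tgfb1, Arhgef17, Jund, Bbc3, Cebpb, Chordc1 and Plec, which lost them. With the offset for GC content, 190 genes were called higher and 96 lower, and 101 and 36 were common. With the ATEV group left out, 123 were called higher and 59 lower. The counts were 338 and 161 without the NTEV group, and 151 and 54 without the DNase-treated ATEV group. A list's calls in any of these fits are to be read beside that fit's total.

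**Figure D1:**
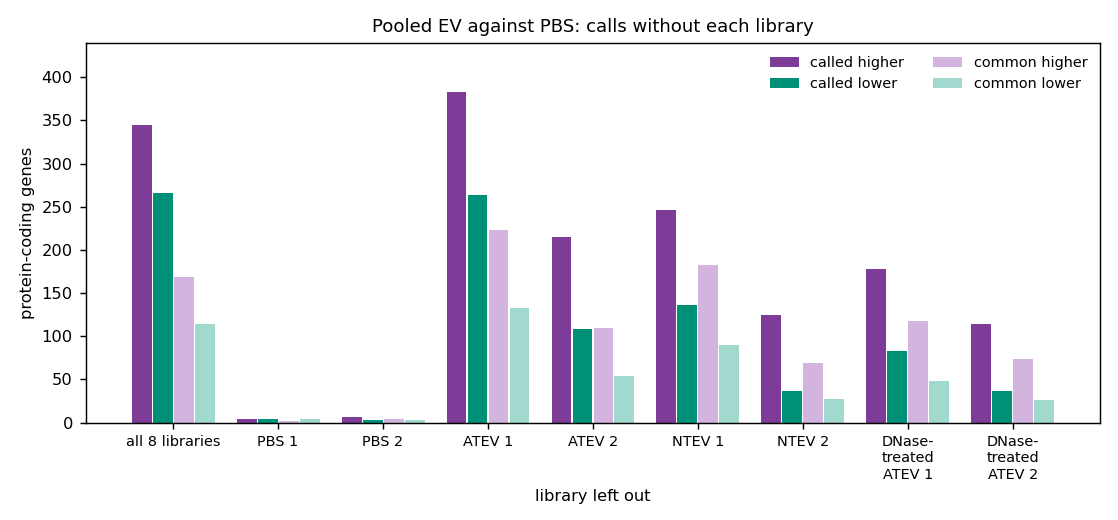
Number of protein-coding genes (vertical axis) called higher or lower with pooled EVs against PBS, and common to the EV kinds, with all 8 libraries and without each library in turn (horizontal axis). Genes called higher or lower number 345 and 266 with all libraries, between 3 and 6 without either PBS library, and between 36 and 383 without an EV library, where 1 bar is taller than with all libraries (383 higher without ATEV library 1).

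Where the EV kinds were compared with each other, 144 protein-coding genes differed (1.13% of those tested, edgeR adjusted p under 0.05). This test uses no PBS mean, although the PBS libraries enter its filter, scaling and estimate of spread. It called 75 of the 345 genes that were higher with pooled EVs and 4 of the 266 that were lower. Among common genes, the kinds differed for 29 of the 168 rises and 1 of the 114 falls. The 3 EV kinds lay within 2-fold of each other for 99 of the 168 rises and for 99 of the 114 falls. Their median changes over the common rises were 1.73 after ATEVs, 1.06 after NTEVs and 1.52 after DNase-treated ATEVs, and NTEVs gave the smallest change for 119 of the 168. Over the common falls the medians were -0.90, -0.87 and -0.88. These 3 comparisons share the PBS libraries.

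The common rises with the largest changes held genes of the antiviral interferon response. They are described first by what they do, with the CPM of every library. Oasl2 encodes a relative of the oligoadenylate synthetases, which sense double-stranded RNA. It stood at 2.29 and 1.82 CPM with PBS, 100.1 and 100.2 after ATEVs, 6.33 and 11.5 after NTEVs and 22.4 and 37.6 after DNase-treated ATEVs. Every EV library was above both PBS libraries, and the 3 EV kinds did not overlap with each other (log2 fold change 3.85, SE 0.35, edgeR adjusted p = 0.00336). Oas2, a synthetase that activates RNase L, was at 0.0971 and 0.274 CPM with PBS, 18.5 and 44.02 after ATEVs, 0.977 and 2.41 after NTEVs and 5.62 and 18.1 after DNase-treated ATEVs. Here the ATEV and DNase-treated ATEV libraries nearly met and the NTEV libraries lay between them and PBS (log2 fold change 5.62, SE 0.90, edgeR adjusted p = 0.0196). Rtp4, an interferon-induced transmembrane protein, had 1.26 and 1.43 CPM with PBS, 47.5 and 53.1 after ATEVs, 3.73 and 7.54 after NTEVs and 15.4 and 29.9 after DNase-treated ATEVs, in the same order (log2 fold change 3.79, SE 0.42, edgeR adjusted p = 0.00623).

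Ifit1 encodes a protein that binds RNA lacking the marks of host messages. Its values were 0.466 and 0.274 CPM with PBS, 8.55 and 19.3 after ATEVs, 0.841 and 1.89 after NTEVs and 6.92 and 8.61 after DNase-treated ATEVs. The groups PBS, NTEV and DNase-treated ATEV did not overlap, and the DNase-treated libraries met the lower ATEV library (log2 fold change 3.79, SE 0.55, edgeR adjusted p = 0.0147). Ddx60, a helicase of antiviral RNA sensing, was at 0.544 and 0.760 CPM with PBS, 10.7 and 14.7 after ATEVs, 1.27 and 3.06 after NTEVs and 3.90 and 6.97 after DNase-treated ATEVs. None of the 4 groups overlapped (log2 fold change 3.04, SE 0.48, edgeR adjusted p = 0.0185). Irf7, the transcription factor that amplifies type I interferon production, had 5.30 and 5.68 CPM with PBS, 45.2 and 86.3 after ATEVs, 10.97 and 28.05 after NTEVs and 26.2 and 59.5 after DNase-treated ATEVs. Library 2 of each EV kind was the higher, the EV kinds overlapped, and all stayed above PBS (log2 fold change 2.79, SE 0.54, edgeR adjusted p = 0.031). Apol9a, an interferon-inducible apolipoprotein L, went from 1.57 and 0.942 CPM with PBS to 45.02 and 46.1 after ATEVs, 2.64 and 6.67 after NTEVs and 7.89 and 15.01 after DNase-treated ATEVs (log2 fold change 3.39, SE 0.49, edgeR adjusted p = 0.0147). Its 4 groups did not overlap. Apol9b is a close copy, so reads of both may be shared. Of the genes of these paragraphs, Irf7 lost its call without DNase-treated ATEV library 2, and Irf7, Ddx60 and Apol9a lost theirs with the ATEV group left out.

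Promoters of these genes were searched for the core of the interferon-stimulated response element, the sequence that interferon-activated STAT and IRF factors bind. The motif was GAAANNGAAA on either strand, in the 250 bases before the start site in RefSeq's GRCm38.p6 table. Of the 14 common rises named here, 9 had a promoter in that table and 4 of these held it, as did 14 of 117 (12%) among all common rises and 3 of 79 (3.80%) among all common falls. Over all protein-coding genes tested the share was 3.27%, 327 of 9993. The 4 promoters are shown because these genes rose with every EV kind. Each line gives the 150 bases before the start site, 5′ to 3′ on the gene's strand. Capitals mark the motif, read as TTTCNNTTTC where it lies on the opposite strand. Gbp3 and Apol9a have 2 promoters each in the table, and the one with matches nearest to the start is shown.
Ifit1, chr19:34640739-34640888, plus strand: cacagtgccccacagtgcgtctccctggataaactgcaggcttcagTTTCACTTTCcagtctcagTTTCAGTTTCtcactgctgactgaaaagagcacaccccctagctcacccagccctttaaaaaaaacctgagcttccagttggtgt
Ddx60, chr8:61927937-61928086, plus strand: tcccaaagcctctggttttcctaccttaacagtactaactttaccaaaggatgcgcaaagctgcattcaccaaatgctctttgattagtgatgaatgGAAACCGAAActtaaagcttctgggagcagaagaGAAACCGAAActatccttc
Gbp3, chr3:142559894-142560043, plus strand: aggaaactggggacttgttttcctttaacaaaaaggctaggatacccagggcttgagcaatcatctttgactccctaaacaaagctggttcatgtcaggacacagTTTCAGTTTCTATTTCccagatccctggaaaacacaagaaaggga
Apol9a, chr15:77411081-77411230, minus strand: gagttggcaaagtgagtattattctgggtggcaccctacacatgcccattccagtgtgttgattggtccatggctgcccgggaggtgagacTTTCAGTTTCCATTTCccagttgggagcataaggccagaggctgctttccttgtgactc
Each of the 4 carried 2 matches, which overlap in Gbp3 and Apol9a. A match describes the letters only and is not shown to be a bound site. Oasl2, Irf7, C3, Sp140 and Liph had no match in this window.

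Interferon-induced GTPases, which attack the vacuoles of intracellular parasites, were also among the common rises. Gbp3, a guanylate-binding protein, stood at 0.447 and 0.486 CPM with PBS, 301 and 114 after ATEVs, 1.41 and 1.82 after NTEVs and 6.70 and 9.63 after DNase-treated ATEVs (log2 fold change 4.90, SE 0.52, edgeR adjusted p = 0.00532). The 4 groups did not overlap, and the kinds differed (edgeR adjusted p = 0.00223). Iigp1, an immunity-related GTPase, was at 0.0583 and 0 CPM with PBS, 1111 and 535 after ATEVs, 0.156 and 0.199 after NTEVs and 0.266 and 0.747 after DNase-treated ATEVs (edgeR adjusted p = 0.00904). The PBS value rests on 3 counts over both libraries. Against these the ratio was 4.93 with NTEVs (16 counts, 95% exact counting interval 1.41 to 26.4) and 14.2 with DNase-treated ATEVs (41 counts, 4.51 to 71.4). With ATEVs it was 23117 (71760 counts, 7910 to 112100). Sp140, an interferon-inducible nuclear protein of immune cells, had 0.0194 and 0 CPM with PBS, 7.82 and 10.2 after ATEVs, 0.0195 and 0.0995 after NTEVs and 0.121 and 0.149 after DNase-treated ATEVs (edgeR adjusted p = 0.0228). PBS held 1 count in all and NTEVs 5, a ratio of 4.62 with an interval of 0.517 to 218, so a difference between PBS and NTEVs was not detectable at this depth. Its call was lost without NTEV library 2 or DNase-treated ATEV library 2. A share of 37.1% of the 31-base words of Sp140 also occurs in pseudogenes. Counting intervals cover counting error only.

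Other common rises lay outside the interferon response or reach beyond it. C3, the central component of complement, had 3.38 and 1.98 CPM with PBS, 45.3 and 215 after ATEVs, 6.86 and 32.1 after NTEVs and 172 and 271 after DNase-treated ATEVs (log2 fold change 4.92, SE 0.96, edgeR adjusted p = 0.0322). All EV libraries were above PBS, with a wide spread inside the ATEV and NTEV groups. Fam57b, a membrane protein with the lipid-related domain that ceramide synthases also carry, was at 0.0971 and 0.334 CPM with PBS, 1.75 and 3.83 after ATEVs, 2.35 and 3.56 after NTEVs and 2.08 and 2.81 after DNase-treated ATEVs (log2 fold change 3.74, SE 0.61, edgeR adjusted p = 0.0205). The 3 EV kinds overlapped, with changes of 3.77 after ATEVs, 3.85 after NTEVs and 3.58 after DNase-treated ATEVs. Liph, a lipase that makes lysophosphatidic acid, had 1.40 and 0.851 CPM with PBS, 2.97 and 5.25 after ATEVs, 3.44 and 3.93 after NTEVs and 3.34 and 4.43 after DNase-treated ATEVs (log2 fold change 1.77, SE 0.34, edgeR adjusted p = 0.0322). Ttc36, a tetratricopeptide repeat protein, had 0.272 and 0.486 CPM with PBS and 0.997 to 4.79 over the EV libraries (log2 fold change 2.76, SE 0.61, edgeR adjusted p = 0.0451). Its call was lost with the GC offset, at a log2 fold change of 2.44 (edgeR adjusted p = 0.0676), with upper-quartile scaling and without 5 of the 6 EV libraries. The call of Fam57b was lost without DNase-treated ATEV library 2, that of C3 without either DNase-treated ATEV library, and that of Liph without either NTEV or either DNase-treated ATEV library. For the 14 common rises named so far, 8 of the 13 that could be tested kept their call with the ATEV group left out. Among the 14, Oas2, Iigp1, Sp140 and Fam57b did not meet the filter's minimum of 0.239 CPM in both PBS libraries.

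**Figure D2:**
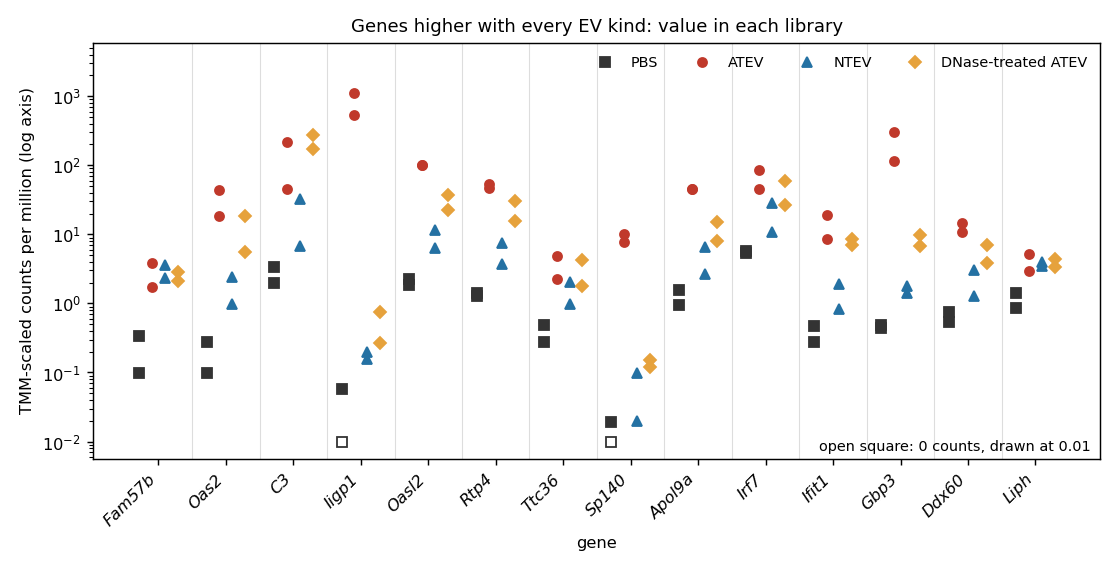
TMM-scaled CPM (log axis) of the 14 named common rises in each of the 8 libraries, by gene (horizontal axis) and treatment (marker). For each gene the 6 EV points lie above both PBS points, for Sp140 by less than counting error with NTEVs. For Gbp3 the ATEV points at 301 and 114 lie far above the NTEV points at 1.41 and 1.82.

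Over the list of interferon-stimulated antiviral genes, 26 of 47 tested rose and 0 fell, against 2.71% and 2.09% of protein-coding genes. The median log2 fold change was 1.41, against -0.018 over all genes tested. A gene that passes the expression filter only through an EV group where it is high has to differ from PBS, so the list was also counted over the members that met the filter's minimum of 0.239 CPM in both PBS libraries. These were 38 of the 47, of which 23 rose, with a median of 1.29. The list's medians were 2.62 after ATEVs, 0.50 after NTEVs and 1.64 after DNase-treated ATEVs. For 15 members the rise was common to the EV kinds (1.32% over all genes tested), 13 of them among the 38. The kinds differed for 14 of the 38, against 93 of the 11895 protein-coding genes that met that minimum. Isg15, a ubiquitin-like protein attached to newly made proteins, was at 0.835 and 0.821 CPM with PBS, 21.9 and 26.7 after ATEVs, 0.880 and 2.61 after NTEVs and 8.96 and 9.61 after DNase-treated ATEVs (log2 fold change 3.14, SE 0.44, edgeR adjusted p = 0.0134). NTEV library 1 barely passed the PBS libraries. Parp14, an interferon-induced mono-ADP-ribosyltransferase, had 14.04 and 10.9 CPM with PBS, 230.3 and 150.2 after ATEVs, 19.5 and 33.6 after NTEVs and 47.3 and 56.3 after DNase-treated ATEVs (log2 fold change 2.35, SE 0.29, edgeR adjusted p = 0.00904). The count of rises in the list was 0 without either PBS library, 14 without DNase-treated ATEV library 2, 17 without NTEV library 2, and between 21 and 25 without any other EV library. With the ATEV group left out it was 6, with a median of 0.99, beside 123 rises over all protein-coding genes in that fit.

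Of 25 interferon gamma-induced GTPases and related genes tested, 16 rose and 0 fell, with a median log2 fold change of 2.72, against 2.71% of protein-coding genes called higher. Of the 15 that met the filter's minimum in both PBS libraries, 10 rose, with a median of 2.01, and the EV kinds differed for 9. Of all 11895 protein-coding genes that met it, 299 rose and the kinds differed for 93. The medians over all 25 were 6.71 after ATEVs, 0.71 after NTEVs and 1.43 after DNase-treated ATEVs. The rise was common for 9, of which 4 were among those 15 (1.32% over all genes tested). Casp1, the protease that matures interleukin-1 beta, was at 0.175 and 0.122 CPM with PBS, 16.2 and 16.3 after ATEVs, 0.254 and 0.348 after NTEVs and 0.992 and 0.821 after DNase-treated ATEVs (log2 fold change 3.41, SE 0.30, edgeR adjusted p = 0.00265). The 4 groups did not overlap. Gbp6 had 0.0777 and 0.152 CPM with PBS, 22.6 and 9.42 after ATEVs, 0.235 and 0.373 after NTEVs and 0.944 and 1.10 after DNase-treated ATEVs (log2 fold change 3.93, SE 0.57, edgeR adjusted p = 0.0147). Casp1 and Gbp6 are not among the 15 above. Neither met the minimum of 0.239 CPM in a PBS library, and both passed the filter through EV libraries only. In this list 1 member was called without either PBS library. Without DNase-treated ATEV library 1 or NTEV library 2, 8 members were called, and without DNase-treated ATEV library 2, 6 were. With the ATEV group left out, 1 was called, beside 123 rises over all protein-coding genes in that fit.

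Class I antigen presentation, the route by which a cell shows internal peptides to CD8 T cells, was led by the ATEV libraries. Of 23 members tested 12 rose and 0 fell, against 2.71% and 2.09% of protein-coding genes. The pooled median was 1.04, with medians of 2.97, 0.13 and 0.45 with ATEVs, NTEVs and DNase-treated ATEVs. Of the 18 that met the filter's minimum in both PBS libraries, 9 rose and the EV kinds differed for 10. Of all 11895 protein-coding genes that met it, 299 rose and the kinds differed for 93. With the ATEV group left out 0 of 23 were called, and with the GC offset 10. Over all protein-coding genes these fits called 123 and 190 higher. H2-K1, a class I heavy chain, had 195 and 190.4 CPM with PBS, 2000.0 and 2576 after ATEVs, 203 and 280.0 after NTEVs and 219.9 and 260.0 after DNase-treated ATEVs (log2 fold change 1.40, SE 0.18, edgeR adjusted p = 0.0101). The NTEV and DNase-treated ATEV libraries overlapped, above PBS and far below ATEVs. The rise was common to the EV kinds for 2 members, Psmb8 and Tap1. Of these, Tap1 met the filter's minimum of 0.239 CPM in both PBS libraries. Psmb8 did not, and passed the filter through EV libraries only. Psmb8, an immunoproteasome subunit, was at 0.0971 and 0.0912 CPM with PBS, 316 and 195 after ATEVs, 0.195 and 0.274 after NTEVs and 0.653 and 0.772 after DNase-treated ATEVs (log2 fold change 5.16, SE 0.39, edgeR adjusted p = 0.00172). Tap1, part of the peptide transporter, had 1.15 and 0.608 CPM with PBS, 347 and 242 after ATEVs, 1.31 and 2.49 after NTEVs and 3.80 and 5.999 after DNase-treated ATEVs (log2 fold change 3.94, SE 0.41, edgeR adjusted p = 0.00532). For both genes all 4 groups kept apart, although the NTEV libraries lay close to PBS. Psmb9, another immunoproteasome subunit, had 1 NTEV library inside the PBS range, at 0.369 and 0.122 CPM with PBS and 0.274 and 0.572 after NTEVs (log2 fold change 3.78, SE 0.45, edgeR adjusted p = 0.00809). Calls in the list fell to 1 without either PBS library and to 6 without DNase-treated ATEV library 2.

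Class II presentation, normally a property of professional antigen-presenting cells, gave no common rise. Of 7 members tested 3 rose, against 2.71% of protein-coding genes, and 2 rose with the GC offset. For 5 of the 7 the filter was met through the ATEV libraries only, so these had to be higher there, and H2-DMa alone met it in both PBS libraries. H2-DMb1, which helps load class II molecules, was at 0.214 and 0.213 CPM with PBS, 71.3 and 45.4 after ATEVs, 0.156 and 0.373 after NTEVs and 0.218 and 0.348 after DNase-treated ATEVs (log2 fold change 2.91, SE 0.43, edgeR adjusted p = 0.0148). Its NTEV libraries lay on both sides of PBS, and the lower DNase-treated ATEV library was barely above it. Cd74, the invariant chain, had 3 counts over both PBS libraries, 3 after NTEVs and 7 after DNase-treated ATEVs, and 38585 after ATEVs. Ciita, the regulator of class II genes, had 2 counts with PBS and 5545 with ATEVs, and was at 0 counts with NTEVs and with DNase-treated ATEVs. A count of 0 allows a ratio to PBS of up to 4.92 with NTEVs and 5.51 with DNase-treated ATEVs, the upper 95% exact counting limits. Without either NTEV library or DNase-treated ATEV library 2 the list held 1 call, and without either PBS library 0. With the ATEV group left out 0 of the 7 were called, and H2-DMa changed direction, to a log2 fold change of -0.03. That fit called 123 protein-coding genes higher in all.

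Among 26 tested genes of cytosolic nucleic acid sensing, 7 rose and 0 fell, against 2.71% and 2.09% of protein-coding genes. The median was 0.28, and the rise was common to the EV kinds for Ddx58, Ifi203 and Dhx58. Of the 25 that met the filter's minimum in both PBS libraries, 6 rose. Ddx58, which encodes the RNA sensor RIG-I, stood at 18.4 and 15.7 CPM with PBS, 64.8 and 64.1 after ATEVs, 23.05 and 35.1 after NTEVs and 33.9 and 40.5 after DNase-treated ATEVs (log2 fold change 1.27, SE 0.19, edgeR adjusted p = 0.0169). Every EV library was above PBS. Ifi203, of the family of DNA-binding interferon-inducible proteins, was at 4.78 and 2.13 CPM with PBS, 62.1 and 66.6 after ATEVs, 5.47 and 11.4 after NTEVs and 19.9 and 28.1 after DNase-treated ATEVs (log2 fold change 2.75, SE 0.43, edgeR adjusted p = 0.0178). The lower NTEV library lay just above the higher PBS library. Dhx58, a regulator of RIG-I-like sensors, had 1.18 and 1.52 CPM with PBS and 2.33 to 21.6 with EVs (log2 fold change 2.63, SE 0.48, edgeR adjusted p = 0.0277). Adar, which edits double-stranded RNA, had 93.7 and 80.8 CPM with PBS and 118 to 185 with EVs (log2 fold change 0.79, SE 0.12, edgeR adjusted p = 0.0177). With the ATEV group left out, 0 of the 26 were called. The count was 0 without either PBS library, 3 without DNase-treated ATEV library 2, and 4 without DNase-treated ATEV library 1 or NTEV library 2. It was 3 with the DNase-treated ATEV group left out. Over all protein-coding genes, 123 rises were called without the ATEV group and 151 without the DNase-treated ATEV group.

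NF-kB targets, cytokines and chemokines rose in 5 of 32 tested members and fell in 0, against 2.71% and 2.09% of protein-coding genes. The median was 0.61, and 27 of 32 had a pooled change above 0. Over all 12738 protein-coding genes tested, 6617 had one below 0. C3 and Lcn2 are in this list too, and the rise was common for C3 and Nfkbiz. Of the 27 members that met the filter's minimum in both PBS libraries, 4 rose. Lcn2 did not meet it. Nfkbiz, an atypical nuclear regulator of NF-kB targets, was at 43.8 and 47.8 CPM with PBS, 149 and 101 after ATEVs, 74.6 and 93.6 after NTEVs and 213 and 253 after DNase-treated ATEVs (log2 fold change 1.56, SE 0.19, edgeR adjusted p = 0.00901). None of the 4 groups overlapped. Csf1, the growth factor of macrophages, had 53.9 and 54.8 CPM with PBS, 178 and 203 after ATEVs, 72.01 and 76.8 after NTEVs and 352 and 183 after DNase-treated ATEVs (log2 fold change 1.52, SE 0.25, edgeR adjusted p = 0.0205). ATEV and DNase-treated ATEV libraries overlapped above the NTEV libraries. Cxcl5, an attractant of neutrophils, had 74.96 and 104 CPM with PBS, 550.2 and 368 after ATEVs, 106 and 86.9 after NTEVs and 1548 and 636 after DNase-treated ATEVs (log2 fold change 2.03, SE 0.38, edgeR adjusted p = 0.0296). Its NTEV libraries overlapped PBS. Calls in the list were 0 and 1 without PBS library 1 or 2, and 3 without NTEV library 2 or either DNase-treated ATEV library. With the NTEV group left out 9 were called, and with the GC offset 4. Over all protein-coding genes these fits called 338 and 190 higher.

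Among the common falls, the most stable calls were those of 3 genes. Lars2, the mitochondrial leucyl-tRNA synthetase, stood at 879 and 1000.3 CPM with PBS, 159 and 186 after ATEVs, 171 and 207 after NTEVs and 158 and 157 after DNase-treated ATEVs (log2 fold change -2.45, SE 0.11, edgeR adjusted p = 0.00042). All EV libraries lay within 157 to 207 CPM, a 5.45-fold lower level than PBS, and the kinds were not called different (edgeR adjusted p = 0.775). Lypla1, a thioesterase that removes palmitate from proteins, was at 79.4 and 85.4 CPM with PBS, 26.5 and 26.5 after ATEVs, 31.98 and 25.4 after NTEVs and 26.3 and 32.9 after DNase-treated ATEVs (log2 fold change -1.55, SE 0.13, edgeR adjusted p = 0.00241). Its change was smaller with the GC offset, -1.17, and still called. Vamp7, a SNARE protein of late endosome and lysosome fusion, had 111 and 114 CPM with PBS, 47.6 and 49.8 after ATEVs, 50.6 and 47.3 after NTEVs and 47.7 and 42.9 after DNase-treated ATEVs (log2 fold change -1.24, SE 0.09, edgeR adjusted p = 0.00172). The replicates of Vamp7 differed by little beside the gap to PBS, and its GC content could not be taken from the reference. These 3 genes kept their calls under every alternative that could be run for them.

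Several other common falls encode proteins of membranes and vesicle traffic. Ap1s2, a subunit of the clathrin adaptor AP-1, was at 19.2 and 24.6 CPM with PBS, 9.45 and 8.69 after ATEVs, 9.48 and 6.67 after NTEVs and 9.25 and 8.56 after DNase-treated ATEVs (log2 fold change -1.33, SE 0.17, edgeR adjusted p = 0.0103). Tmed5, a cargo receptor between endoplasmic reticulum and Golgi, had 121 and 142 CPM with PBS, 72.2 and 50.2 after ATEVs, 66.7 and 41.6 after NTEVs and 63.3 and 58.6 after DNase-treated ATEVs (log2 fold change -1.17, SE 0.20, edgeR adjusted p = 0.0234). In both genes the 3 EV kinds overlapped each other and stayed below PBS. Tspan12, a tetraspanin of Frizzled signalling, was at 5.54 and 10.1 CPM with PBS and 1.38 to 3.86 with EVs (log2 fold change -1.78, SE 0.36, edgeR adjusted p = 0.0339). Zdhhc2, a palmitoyltransferase, had 45.6 and 66.2 CPM with PBS and 19.9 to 35.1 with EVs (log2 fold change -1.14, SE 0.25, edgeR adjusted p = 0.0463). Ormdl1, a brake on sphingolipid synthesis, had 18.6 and 21.6 CPM with PBS and 8.96 to 12.7 with EVs (log2 fold change -0.92, SE 0.17, edgeR adjusted p = 0.0296). With the GC offset Ap1s2 kept its call at a log2 fold change of -0.87 (edgeR adjusted p = 0.0287), while the log2 fold changes of Tmed5, Tspan12, Zdhhc2 and Ormdl1 became -0.69, -1.49, -0.93 and -0.65 and their calls were lost. Ap1s2 kept its call without any single EV library, and the calls of the other 4 were lost without 1 or more of them.

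The remaining named falls have varied roles. Serpinb5, the serpin maspin, was at 28.4 and 27.6 CPM with PBS, 6.05 and 5.18 after ATEVs, 16.05 and 12.4 after NTEVs and 15.7 and 13.5 after DNase-treated ATEVs (log2 fold change -1.41, SE 0.15, edgeR adjusted p = 0.00514). NTEV and DNase-treated ATEV libraries overlapped and the ATEV libraries lay below them. Krt14, a keratin of basal epithelial cells, had 14.7 and 37.6 CPM with PBS and 4.91 to 13.9 with EVs, where the lower PBS library lay just above the higher NTEV library (log2 fold change -1.68, SE 0.35, edgeR adjusted p = 0.0363). Vbp1, a prefoldin subunit that guides new tubulin and actin, had 81.4 and 83.8 CPM with PBS and 29.97 to 46.2 with EVs (log2 fold change -1.10, SE 0.17, edgeR adjusted p = 0.0177). Hmgn5, a nucleosome-binding protein, had 53.4 and 62.2 CPM with PBS and 20.95 to 37.3 with EVs (log2 fold change -1.09, SE 0.21, edgeR adjusted p = 0.0299). Idi1, an isomerase of cholesterol synthesis, had 22.5 and 40.6 CPM with PBS and 12.04 to 18.1 with EVs (log2 fold change -1.02, SE 0.23, edgeR adjusted p = 0.0498). The calls of Vbp1, Hmgn5 and Idi1 were lost with the GC offset, and that of Idi1 without any of the 6 EV libraries in turn and with DESeq2's size factors. The calls of Krt14 and Hmgn5 were each lost without at least 1 EV library.

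**Figure D3:**
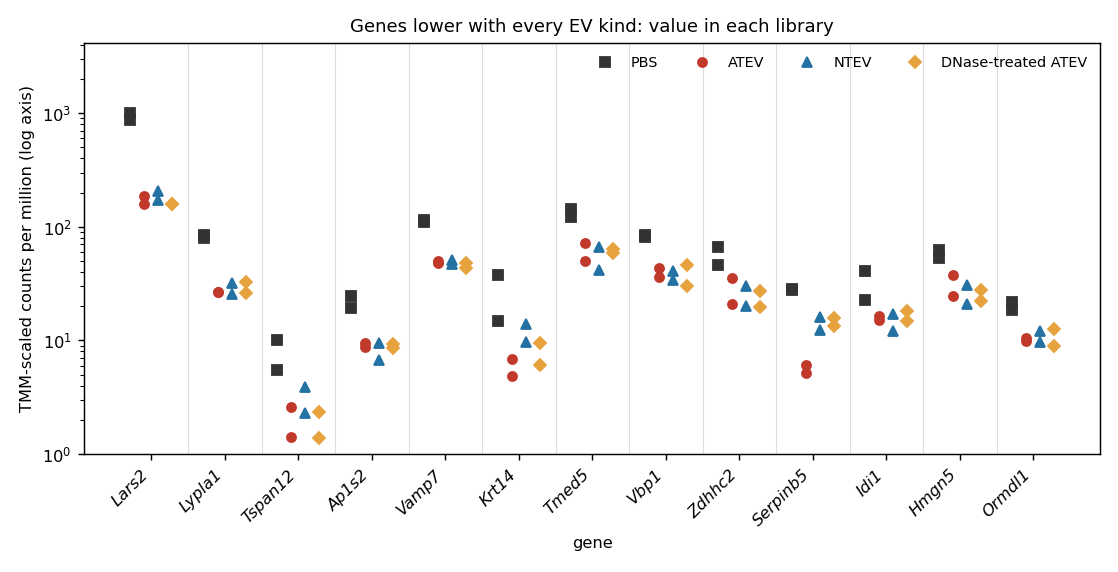
TMM-scaled CPM (log axis) of 13 named common falls in each of the 8 libraries, by gene (horizontal axis) and treatment (marker). For each gene the 6 EV points lie below both PBS points, narrowly for Krt14, and the 3 EV kinds mostly overlap. For Lars2 the PBS points are at 879 and 1000.3 and the EV points between 157 and 207.

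Among genes called in the pooled test whose EV kinds differed, the largest pooled rises were those of Iigp1, Lcn2, Tgtp2, Psmb8 and Gbp5. None of these met the filter's minimum of 0.239 CPM in a PBS library, so they passed it through EV libraries only. Lcn2, an iron-binding protein of inflammation, was at 0.0583 and 0 CPM with PBS, 2.64 and 8.49 after ATEVs, 0.0391 and 0.0249 after NTEVs and 61.7 and 40.3 after DNase-treated ATEVs (edgeR adjusted p = 0.0455). PBS held 3 counts and NTEVs 3, so no difference was detectable there. The ratio to PBS was 157 with ATEVs (487 counts, 95% exact counting interval 53.4 to 763) and 1439.6 with DNase-treated ATEVs (4171 counts, 492 to 6984). Tgtp2, an interferon-induced GTPase, had 0.0389 and 0 CPM with PBS, 181 and 79.3 after ATEVs, 0.0391 and 0.0747 after NTEVs and 0.387 and 0.274 after DNase-treated ATEVs (edgeR adjusted p = 0.0234). Its PBS value rests on 2 counts, against 5 with NTEVs (ratio 2.31, interval 0.378 to 24.3) and 27 with DNase-treated ATEVs (ratio 13.98, interval 3.51 to 121). Gbp5, a guanylate-binding protein, had 0.0583 and 0.0304 CPM with PBS, 54.4 and 23.2 after ATEVs, 0.0391 and 0.398 after NTEVs and 0.653 and 0.647 after DNase-treated ATEVs, with NTEV library 1 inside the PBS range (log2 fold change 5.12, SE 0.94, edgeR adjusted p = 0.0278). The pooled calls of these 3 genes were each lost without either NTEV or either DNase-treated ATEV library, except that Gbp5 kept its call without NTEV library 1. That of Lcn2 was also lost with the GC offset, at a log2 fold change of 5.73 against 5.83 (edgeR adjusted p = 0.0619), and with the replicate number as a block (edgeR adjusted p = 0.0504). In the lower direction Homer2, Slc4a11 and Serpinb5 qualified. Homer2, a scaffold of calcium signalling, was at 56.2 and 57.7 CPM with PBS, 10.4 and 9.47 after ATEVs, 65.5 and 59.8 after NTEVs and 33.7 and 25.02 after DNase-treated ATEVs (log2 fold change -1.11, SE 0.13, edgeR adjusted p = 0.0077). Its NTEV libraries lay above PBS. Slc4a11, a membrane transporter, had 10.8 and 9.03 CPM with PBS, 1.22 and 2.08 after ATEVs, 8.89 and 8.56 after NTEVs and 6.46 and 6.82 after DNase-treated ATEVs (log2 fold change -1.11, SE 0.21, edgeR adjusted p = 0.0291).

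Endocytosis and vesicle uptake, the route by which EVs enter, gave 0 rises and 3 falls among 42 tested genes, against 2.71% and 2.09% of protein-coding genes, with a median of 0.005. Cav1 and Cav2 build caveolae, the flask-shaped pits of the plasma membrane. Cav1 was at 248 and 268 CPM with PBS, 135 and 123 after ATEVs, 164 and 125 after NTEVs and 146 and 108 after DNase-treated ATEVs (log2 fold change -0.95, SE 0.15, edgeR adjusted p = 0.0185). Cav2 had 305 and 368 CPM with PBS, 148 and 139.8 after ATEVs, 173 and 136 after NTEVs and 218 and 235 after DNase-treated ATEVs (log2 fold change -0.97, SE 0.13, edgeR adjusted p = 0.0103). All EV libraries lay below PBS for both, and both kept their calls with the GC offset and without any single EV library. The offset brought the change of Cav2 to -0.59 and that of Cav1 to -0.75. Cdc42, a small GTPase of the actin cytoskeleton, had 567 and 539 CPM with PBS and 353 to 423 with EVs (log2 fold change -0.51, SE 0.11, edgeR adjusted p = 0.0415), a call that was lost with the GC offset and without each EV library in turn. Among tetraspanins and genes of vesicle release 2 of 21 fell and 0 rose, with a median of -0.14. Sdcbp, which encodes syntenin, had 326 and 296 CPM with PBS and 192 to 239 with EVs (log2 fold change -0.55, SE 0.10, edgeR adjusted p = 0.0243). Chmp3, a subunit of the ESCRT machinery, had 154 and 167 CPM with PBS and 109 to 123 with EVs (log2 fold change -0.50, SE 0.10, edgeR adjusted p = 0.0312). The call of Sdcbp was lost with the GC offset, and both were lost without either DNase-treated ATEV or either NTEV library. Lysosomal genes gave 0 calls with edgeR among 31, 5 at an unadjusted p under 0.05 (1 higher, 4 lower) and 3 with DESeq2, and their median was 0.007. Integrins and focal adhesion gave 0 among 30, 7 unadjusted (5 higher, 2 lower) and 2 with DESeq2, with a median of 0.045. Of all 12738 protein-coding genes, 3346 had an unadjusted p under 0.05, and DESeq2 called 1852.

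Large cytoskeletal linkers and motors rose in 8 of 28 tested genes and fell in 0, against 2.71% and 2.09% of protein-coding genes, with a median of 0.36. Across 10878 protein-coding genes the change moved with transcript length at a Spearman rho of 0.12 pooled, 0.11 for ATEVs, 0.22 for NTEVs and -0.0013 for DNase-treated ATEVs, beside 0.14 for the difference between the PBS libraries. The part of length in this list's values was not tested. All 6 EV libraries lay above PBS for 12 of them, against 13% of protein-coding genes. Dync1h1, the heavy chain of cytoplasmic dynein, was at 296 and 283 CPM with PBS, 542 and 451 after ATEVs, 558 and 608 after NTEVs and 524 and 565 after DNase-treated ATEVs (log2 fold change 0.90, SE 0.12, edgeR adjusted p = 0.0112). Syne2, a nesprin that ties the nucleus to the cytoskeleton, had 54.2 and 59.8 CPM with PBS, 72.4 and 76.8 after ATEVs, 129 and 140.3 after NTEVs and 102 and 89.3 after DNase-treated ATEVs (log2 fold change 0.79, SE 0.11, edgeR adjusted p = 0.0135). NTEV libraries were the highest here. Plec, a linker of intermediate filaments, had 261 and 307 CPM with PBS and 434 to 589 with EVs (log2 fold change 0.85, SE 0.15, edgeR adjusted p = 0.0233). Dst, another linker of that family, had 189 and 205 CPM with PBS and 242 to 493 with EVs (log2 fold change 0.82, SE 0.13, edgeR adjusted p = 0.0173). With the GC offset 4 of the 28 were called, and the call of Plec was lost. Without NTEV library 2 the list held 3 calls, without NTEV library 1 or ATEV library 2 it held 4, and without DNase-treated ATEV library 2 it held 5. With the NTEV group left out it held 2 rises, and without either PBS library 0.

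Chromatin regulators rose in 9 of 44 tested genes and fell in 0, against 2.71% and 2.09% of protein-coding genes, with a median of 0.34. All EV libraries lay above PBS for 24 of 44, against 13%. Kmt2d, a histone methyltransferase of enhancers, was at 48.1 and 64.2 CPM with PBS, 96.8 and 79.6 after ATEVs, 125 and 129 after NTEVs and 132 and 133 after DNase-treated ATEVs (log2 fold change 1.02, SE 0.15, edgeR adjusted p = 0.0147). Kmt2a, its relative at promoters, had 58.8 and 60.7 CPM with PBS, 77.2 and 75.1 after ATEVs, 115 and 122 after NTEVs and 98.2 and 103 after DNase-treated ATEVs (log2 fold change 0.70, SE 0.10, edgeR adjusted p = 0.0129). For both genes ATEV libraries were the lowest of the EV libraries. Tet3, which oxidises methylated cytosine, had 50.8 and 42.9 CPM with PBS and 63.4 to 83.8 with EVs (log2 fold change 0.68, SE 0.12, edgeR adjusted p = 0.0234). The rise was common to the EV kinds for Kmt2d alone of these 44. With the GC offset 5 of the 44 were called. The count was 0 without either PBS library, 2 without NTEV library 2, 3 without DNase-treated ATEV library 2, 5 without NTEV library 1, and 6 without ATEV library 2 or DNase-treated ATEV library 1. With the NTEV group left out it was 2, and with the DNase-treated ATEV group left out 4. Over all protein-coding genes these fits called 338 and 151 higher.

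In the Notch pathway 3 of 24 tested genes rose and 0 fell, against 2.71% and 2.09% of protein-coding genes, with a median of 0.086. Notch1, a receptor, was at 63.3 and 49.6 CPM with PBS, 120.1 and 117 after ATEVs, 115 and 150.3 after NTEVs and 123 and 126 after DNase-treated ATEVs (log2 fold change 1.15, SE 0.15, edgeR adjusted p = 0.0116). The 3 EV kinds overlapped well above PBS, and the call held with the GC offset and without any single EV library. Notch2, another receptor, had 161 and 149 CPM with PBS and 205 to 283 with EVs (log2 fold change 0.57, SE 0.10, edgeR adjusted p = 0.0269). Mib2, a ubiquitin ligase of Notch ligands, had 23.9 and 21.5 CPM with PBS and 32.5 to 56.2 with EVs (log2 fold change 0.97, SE 0.22, edgeR adjusted p = 0.0468), a call lost with the GC offset and with upper-quartile scaling. The list held 1 call when ATEV library 2, NTEV library 2 or a DNase-treated ATEV library was left out, and 0 without either PBS library.

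Targets of YAP and TEAD, the Hippo pathway's transcription factors, rose in 4 of 25 tested genes and fell in 0, against 2.71% and 2.09% of protein-coding genes, with a median of 0.18. Amotl2, a feedback inhibitor of YAP, had 124 and 134 CPM with PBS and 181 to 255 with EVs (log2 fold change 0.70, SE 0.15, edgeR adjusted p = 0.0389). Nuak2, a kinase induced by YAP, had 20.2 and 14.8 CPM with PBS and 21.7 to 36.1 with EVs (log2 fold change 0.77, SE 0.15, edgeR adjusted p = 0.0311). Ptpn14, a phosphatase that restrains YAP, had 126 and 106 CPM with PBS and 153 to 193 with EVs (log2 fold change 0.56, SE 0.12, edgeR adjusted p = 0.0381). Arhgef17, a guanine nucleotide exchange factor, had 127 and 111 CPM with PBS and 151 to 206 with EVs (log2 fold change 0.55, SE 0.12, edgeR adjusted p = 0.0389). All 6 EV libraries were above PBS for each. With the GC offset 0 of the 25 were called, at a list median of 0.17 and changes of 0.52 for Amotl2, 0.66 for Nuak2, 0.49 for Ptpn14 and 0.34 for Arhgef17. The count was 0 without either NTEV, either DNase-treated ATEV or either PBS library, and 1 without ATEV library 2. It was 0 with the DNase-treated ATEV group left out and 1 without either of the other EV groups. Over all protein-coding genes, 151 rises were called without the DNase-treated ATEV group, 123 without ATEVs and 338 without NTEVs.

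Basement membrane genes moved in both directions, with 2 rises and 2 falls among 20, against 2.71% and 2.09% of protein-coding genes. Lama5, the alpha chain of laminin-511 type laminins, had 501 and 425 CPM with PBS and 627 to 1408 with EVs (log2 fold change 1.15, SE 0.22, edgeR adjusted p = 0.0299). Hspg2, which encodes perlecan, was at 359 and 351 CPM with PBS, 473 and 576 after ATEVs, 817 and 1039 after NTEVs and 623 and 515 after DNase-treated ATEVs (log2 fold change 0.88, SE 0.15, edgeR adjusted p = 0.0243). The calls of both were lost with the GC offset, and that of Lama5 without either DNase-treated ATEV library. Npnt, an integrin ligand of basement membranes, had 493 and 497 CPM with PBS and 200.4 to 449 with EVs (log2 fold change -0.76, SE 0.16, edgeR adjusted p = 0.0397), a call lost without ATEV, NTEV or DNase-treated ATEV library 2.

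Fibrillar and interstitial matrix genes rose in 2 of 25 and fell in 0, against 2.71% and 2.09% of protein-coding genes. Their median was 0.69. Ltbp2, a microfibril protein, was at 1.75 and 1.58 CPM with PBS, 22.03 and 26.7 after ATEVs, 2.31 and 2.39 after NTEVs and 59.8 and 54.4 after DNase-treated ATEVs (log2 fold change 3.15, SE 0.17, edgeR adjusted p = 0.00042). NTEV libraries lay close to PBS. Col5a1, a chain of collagen V, had 4.08 and 3.04 CPM with PBS, 15.5 and 20.6 after ATEVs, 7.88 and 6.64 after NTEVs and 11.1 and 13.5 after DNase-treated ATEVs, a rise common to the kinds (log2 fold change 1.71, SE 0.22, edgeR adjusted p = 0.0103). Matrix proteases and their inhibitors fell in 3 of 26 and rose in 0, against 2.09% and 2.71% of protein-coding genes. Their median was -0.031. Serpinb5 is 1 of the genes that fell. St14, the protease matriptase, had 1.26 and 2.31 CPM with PBS and 0.0690 to 0.796 with EVs (log2 fold change -2.27, SE 0.45, edgeR adjusted p = 0.0339). Plau, urokinase, had 16.5 and 21.3 CPM with PBS and 7.85 to 13.8 with EVs (log2 fold change -0.84, SE 0.18, edgeR adjusted p = 0.04). Both calls were lost without either NTEV or either DNase-treated ATEV library.

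Keratins, junctions and genes of epithelial identity gave 2 rises and 2 falls among 40, against 2.71% and 2.09% of protein-coding genes. Their median was 0.046. Ehf, an epithelial ETS factor, was at 4.39 and 3.46 CPM with PBS, 40.3 and 48.99 after ATEVs, 4.61 and 5.20 after NTEVs and 29.5 and 39.3 after DNase-treated ATEVs (log2 fold change 2.31, SE 0.20, edgeR adjusted p = 0.00265). Tjp3, a tight junction scaffold, had 25.6 and 26.4 CPM with PBS and 42.4 to 69.97 with EVs, a rise common to the kinds (log2 fold change 1.03, SE 0.17, edgeR adjusted p = 0.0202). Cldn6, a tight junction claudin, had 124 and 89.8 CPM with PBS and 27.5 to 93.3 with EVs (log2 fold change -1.12, SE 0.22, edgeR adjusted p = 0.0324). Pkp1, a desmosome plaque protein, had 16.8 and 18.5 CPM with PBS and 5.23 to 17.9 with EVs (log2 fold change -0.88, SE 0.17, edgeR adjusted p = 0.0334). For Cldn6 and Pkp1, NTEV library 1 lay inside the PBS range, and both calls were lost without ATEV, NTEV or DNase-treated ATEV library 2. Among 20 mesenchymal genes 1 rose and 0 fell: Tgfb1, a growth factor, at 58.3 and 58.2 CPM with PBS and 78.9 to 109 with EVs (log2 fold change 0.61, SE 0.13, edgeR adjusted p = 0.04). That call was lost with the GC offset, where the change was 0.25, and without every EV library other than ATEV library 1. The Wnt pathway gave 0 calls with edgeR among 26, 4 at an unadjusted p under 0.05 (3 higher, 1 lower) and 2 with DESeq2, with a median of 0.073. For all 12738 protein-coding genes the unadjusted and DESeq2 counts were 3346 and 1852.

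Immediate early genes and feedback inhibitors of ERK signalling had 1 rise and 0 falls among 30 with edgeR, against 2.71% and 2.09% of protein-coding genes. Before adjustment 20 were higher at p under 0.05 and 1 was lower, and with DESeq2 14 were called higher and 1 lower. Over all 12738 protein-coding genes the counts were 1683 and 1663 before adjustment, and 1124 and 728 with DESeq2. In all, 24 of 30 had a pooled change above 0 and 17 had all EV libraries above PBS, against 13% of protein-coding genes. A pooled change below 0 was found for 6617 of all 12738 protein-coding genes. The median was 0.86. Jund, an AP-1 subunit, was at 121 and 131 CPM with PBS, 242 and 437 after ATEVs, 249 and 427 after NTEVs and 277 and 445 after DNase-treated ATEVs (log2 fold change 1.45, SE 0.33, edgeR adjusted p = 0.048). Library 2 of each EV kind was the higher. Its call was lost with the GC offset, with DESeq2's size factors or upper-quartile scaling, and without 4 of the 6 EV libraries. Fosl2, another AP-1 subunit, had 91.1 and 85.7 CPM with PBS and 125 to 213 with EVs (log2 fold change 0.89, SE 0.24; edgeR adjusted p = 0.0732, not called). Spry2, an inhibitor of receptor tyrosine kinase signalling, had 28.8 and 30.00 CPM with PBS and 35.9 to 52.4 with EVs (log2 fold change 0.48, SE 0.13; edgeR adjusted p = 0.076, not called).

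Calls in stress programmes are set against 2.71% of protein-coding genes called higher and 2.09% lower. Heat shock chaperones rose in 2 of 23 genes and fell in 1, with a median of -0.34. Hspa1a and Hspa1b, inducible HSP70 genes that are near-identical copies and may share reads, both rose. Hspa1a had 2.25 and 2.58 CPM with PBS and 4.18 to 5.999 with EVs, and Hspa1b had 29.7 and 44.7 with PBS and 54.98 to 79.8 with EVs. Their log2 fold changes were 1.07 and 0.89, and no EV library overlapped PBS. Chordc1, an HSP90 partner, had 91.5 and 104 CPM with PBS and 40.1 to 65.5 with EVs (log2 fold change -0.86, SE 0.19, edgeR adjusted p = 0.0415). None of the 3 was called with the GC offset, or without library 2 of any EV kind. Among 25 p53 targets 2 rose and 3 fell, including Fas, the death receptor, at 0.311 and 0.547 CPM with PBS, 13.1 and 7.94 after ATEVs, 0.352 and 0.572 after NTEVs and 3.75 and 4.41 after DNase-treated ATEVs (log2 fold change 2.68, SE 0.39, edgeR adjusted p = 0.0147). Its NTEV libraries overlapped PBS. Bbc3, which encodes PUMA, had 8.86 and 8.84 CPM with PBS and 13.2 to 20.6 with EVs (log2 fold change 0.98, SE 0.16, edgeR adjusted p = 0.0222), a call lost with the GC offset. Perp, a desmosome protein, had 137 and 151 CPM with PBS and 63.4 to 111 with EVs (log2 fold change -0.66, SE 0.10, edgeR adjusted p = 0.0153). The other falls were Ei24, at 95.2 and 104 CPM with PBS and 60.4 to 70.6 with EVs, and Ccng1, with a log2 fold change of -0.46, which is named outside the rule after its value was seen. In the list of ATF4 and amino acid stress 1 of 27 rose and 1 fell. Cebpb, a transcription factor of stress and inflammation, had 18.98 and 21.8 CPM with PBS and 25.96 to 65.2 with EVs (log2 fold change 1.20, SE 0.21, edgeR adjusted p = 0.0241). Cth, an enzyme that makes cysteine, had 37.5 and 30.7 CPM with PBS and 16.4 to 24.1 with EVs (log2 fold change -0.74, SE 0.16, edgeR adjusted p = 0.0417). Both calls were lost with the GC offset. Endoplasmic reticulum stress gave 0 calls with edgeR among 23 genes, 6 at an unadjusted p under 0.05 (2 higher, 4 lower) and 2 with DESeq2. Oxidative stress gave 0 among 33, 7 unadjusted, all lower, and 1 with DESeq2. For all 12738 protein-coding genes the unadjusted and DESeq2 counts were 3346 and 1852, and 1663 of the former were lower.

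Genes of protein synthesis had list medians below 0. Cytosolic ribosomal proteins fell in 4 of 83 and rose in 0, against 2.09% and 2.71% of protein-coding genes. Their median was -0.15, and 29 had all EV libraries below PBS, against 15% of protein-coding genes. Rps29 was at 277 and 295 CPM with PBS, 146 and 139 after ATEVs, 148 and 158 after NTEVs and 175 and 138 after DNase-treated ATEVs (log2 fold change -0.92, SE 0.11, edgeR adjusted p = 0.00892). It kept its call with the GC offset and without any single EV library. The other 3 calls, Rpl39, Rps27a and Rpl23a, had log2 fold changes of -0.54, -0.60 and -0.46, and the list held 1 or 2 calls whichever EV library was left out and 0 without either PBS library. Shares of 39.2% of the words of Rps29, 58.1% of Rps27a and 83.2% of Rpl23a also occur in pseudogenes, so their counts are uncertain. Mitochondrial ribosomal proteins gave 0 calls with edgeR among 75, 12 at an unadjusted p under 0.05, all lower, and 2 with DESeq2, with a median of -0.20. Of all 12738 protein-coding genes, 1663 were lower at an unadjusted p under 0.05, and DESeq2 called 728 lower. Lars2 was the 1 call among 17 mitochondrial tRNA synthetases, whose median was -0.095, and cytosolic tRNA synthetases gave 0 among 20, 2 unadjusted and 0 with DESeq2. Myc targets and genes of ribosome biogenesis had 31 of 33 members below 0 and a median of -0.46. Of all 12738 protein-coding genes, 6617 were below 0. Npm1, a nucleolar chaperone, was the 1 called, at 1876 and 2046 CPM with PBS and 816 to 1508 with EVs (log2 fold change -0.78, SE 0.18, edgeR adjusted p = 0.0484). That call was lost with the GC offset and without either NTEV or either DNase-treated ATEV library.

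Genes of DNA replication and S phase gave 0 calls among 38 with edgeR, 0 at an unadjusted p under 0.05 and 0 with DESeq2, although 37 had a pooled change below 0 and the median was -0.55. Of all 12738 protein-coding genes, 6617 were below 0, 3346 had an unadjusted p under 0.05 and DESeq2 called 1852. Rrm2, a subunit of ribonucleotide reductase, had 324 and 522 CPM with PBS, 407 and 179 after ATEVs, 296 and 122 after NTEVs and 204 and 158 after DNase-treated ATEVs (log2 fold change -0.92, SE 0.39; edgeR adjusted p = 0.184, not called). ATEV library 1 lay inside the PBS range, and library 2 of each EV kind was lower than library 1. Genes of G2 and mitosis gave 0 calls among 36 with edgeR, 4 unadjusted and 0 with DESeq2, with 36 of 36 below 0 and a median of -0.42. Ccnb1, the mitotic cyclin, had 108 and 125 CPM with PBS, 100.2 and 53.2 after ATEVs, 77.9 and 44.03 after NTEVs and 70.6 and 63.02 after DNase-treated ATEVs (log2 fold change -0.78, SE 0.27; edgeR adjusted p = 0.124, not called). Every EV library was below PBS. With ATEVs and NTEVs, the gap between replicates was wider than that from the higher replicate to the lower PBS library. With DNase-treated ATEVs it was narrower. Replication-dependent histones gave 0 calls among 19, 1 unadjusted and 1 with DESeq2.

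Metabolic lists were likewise mostly without calls, beside 2.71% of protein-coding genes called higher and 2.09% lower. Genes of glycolysis and hypoxia had 32 of 34 members above 0, a median of 0.59 and 14 with all EV libraries above PBS, against 13% of protein-coding genes, yet 0 calls with edgeR, 8 at an unadjusted p under 0.05, all higher, and 4 with DESeq2. Of all 12738 protein-coding genes, 6617 were below 0, 1683 were higher at an unadjusted p under 0.05 and DESeq2 called 1124 higher. Hk2, the hexokinase of glycolysis, had 121 and 127 CPM with PBS, 326 and 219 after ATEVs, 157 and 186 after NTEVs and 217 and 165 after DNase-treated ATEVs (log2 fold change 0.74, SE 0.19; edgeR adjusted p = 0.0648, not called). Vegfa, the growth factor of blood vessels, had 89.2 and 88.8 CPM with PBS, 148 and 263 after ATEVs, 121 and 263 after NTEVs and 215 and 273 after DNase-treated ATEVs (log2 fold change 1.26, SE 0.34; edgeR adjusted p = 0.0755, not called). Both lay above PBS in all EV libraries. The respiratory chain had 1 fall among 74, with a median of -0.14: Sdhd, a subunit of succinate dehydrogenase, at 154 and 168 CPM with PBS and 109 to 142 with EVs (log2 fold change -0.44, SE 0.10, edgeR adjusted p = 0.0419). It was not called with the GC offset or without any EV library in turn. In cholesterol synthesis and uptake, Idi1 was the 1 call among 31 genes, with a median of -0.12.

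**Figure D4:**
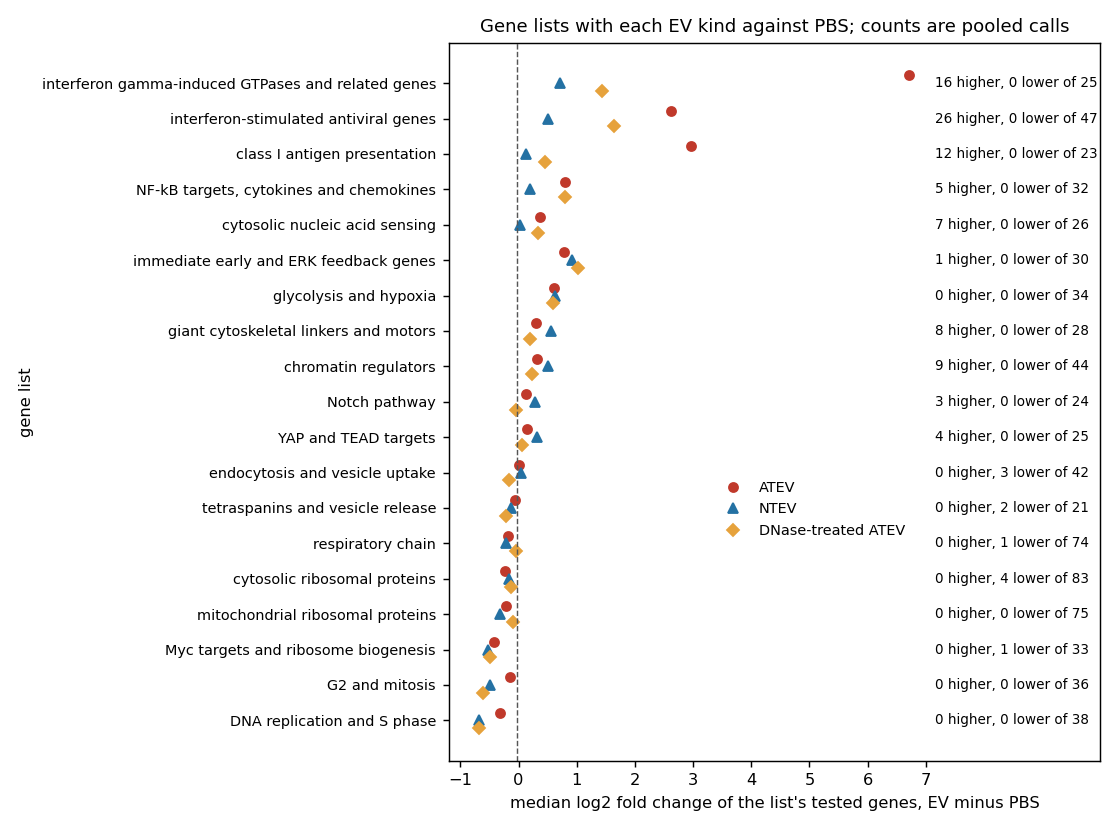
Median log2 fold change against PBS (horizontal axis) of the tested genes of 19 gene lists (vertical axis) for each EV kind (marker), with the number of members called in the pooled test at the right. The dashed line is the median over all protein-coding genes, -0.018. The interferon and class I lists lie to the right with ATEVs, with NTEVs nearest to the line, and the EV kinds nearly coincide for glycolysis and hypoxia at about 0.6.

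The dependence on GC content ran through all 3 EV kinds, with a Spearman rho of 0.43 for ATEVs, 0.41 for NTEVs and 0.34 for DNase-treated ATEVs. In the decile of genes with the lowest GC content, the median pooled change was -0.34 and 11.8% of genes were called lower against 1.38% higher. In the decile with the highest, the median was 0.26 and 7.72% were called higher against 0.184% lower. The median GC content was 54.7% for genes called higher and 41.9% for genes called lower, against 50.2% for all tested. For the antiviral list it was 49.9%, and its calls went from 26 to 21 with the offset at a median of 1.41. For the GTPase list it was 45.7%, and its calls went from 16 to 13 at a median of 2.72. The part of GC content in single genes' changes was not tested beyond the offset. In RNA from whole cultures, more expressing cells and more RNA per cell cannot be told apart.

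**Figure D5:**
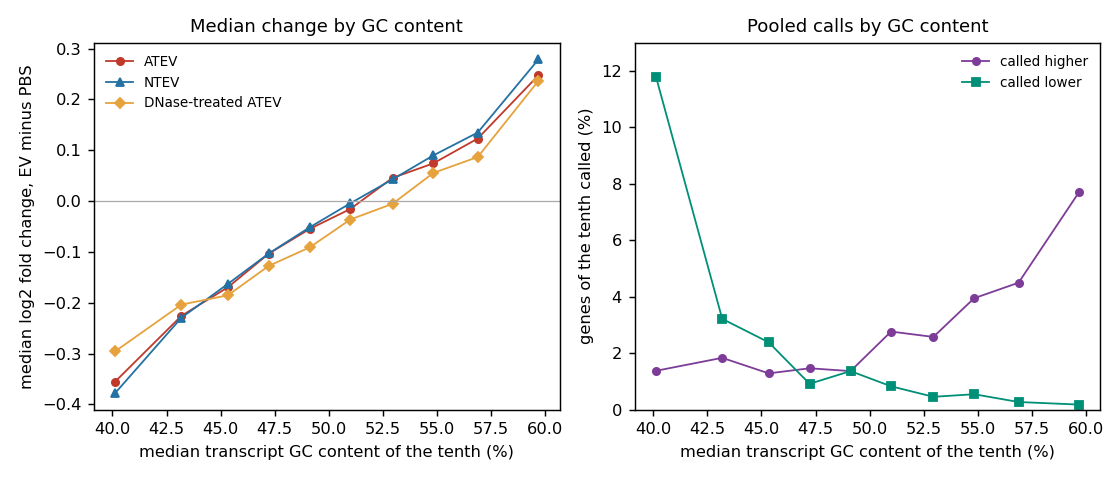
Left, median log2 fold change against PBS for each EV kind by decile of transcript GC content, plotted at the decile's median GC content in percent. Right, share of each decile called higher or lower in the pooled test. Changes climb from -0.34 to 0.26 over the deciles, and calls of lower genes go from 11.8% to 0.184%.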

How the data were processed

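RNA was extracted with the RNeasy kit and libraries were made with the TruSeq stranded mRNA kit, per the labels' protocols. The authors deposited raw read counts per gene for 8 libraries, 2 per group. Tools listed in the submitters' processing notes are TopHat, TopHat2 2.0.11, Cufflinks 2.1.1 and bcl2fastq 2.19, beside the build mm9. Which program counted the reads, with which annotation and strand setting, is not given in the sources used here, so antisense or overlapping genes cannot be told apart. Totals were 34385326 to 52451398 counts. Nothing says that replicates came from separate cultures, so p-values cover the spread between these samples, which may be technical only.

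Symbols (42329 of 42687 identifiers), gene classes, GC content and sequence words came from GENCODE M21 (GRCm38). Genes were filtered with edgeR's default filter by group, scaled by TMM and fitted with edgeR 4.0.16 (R 4.3.3) in a quasi-likelihood model with 4 groups. This left 4 residual degrees of freedom, and the biological coefficient of variation common to all genes was 0.226. The pooled contrast took the mean of the 3 EV groups minus PBS on the log scale, and another test asked whether the EV groups differed. P-values were adjusted by Benjamini-Hochberg over all 15197 genes tested. CPM values are TMM-scaled. The fit was also run on simulated counts with libraries drawn independently. That run does not cover the correlation between same-numbered EV libraries. Replicates differed beyond sampling noise in every group, with a chi-square per gene of at least 39.0.

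Named genes were chosen by rule, leaving out predicted models. These were the 14 common rises and 14 common falls with the largest smallest-of-3 change at an average log2 CPM of at least 1, up to 5 per direction called in both tests, and the 4 members of each list with the smallest p. Some results under this rule are not reported here. The members, lists and tests were chosen with earlier results of these data known. Alternatives were other scaling, DESeq2 1.42.0, no filter, protein-coding genes alone, 2 groups, a replicate block, a loess offset for GC content, and leaving out each library or EV group.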

Additional observations from a re-analysis of the deposited data

Results flagged for a closer look

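The 8 genes named for being called both in the pooled test and in the test of the 3 EV groups are listed with the latter's result. That is edgeR's quasi-likelihood test, and its adjusted p was under 0.05 for each by that choice. Other named genes, such as Gbp3, also differed between the EV kinds. For the higher genes the edgeR adjusted p was 4.7161e-05 for Psmb8, 0.00041715 for Iigp1, 0.00047466 for Tgtp2, 0.0042949 for Lcn2 and 0.0054639 for Gbp5. For the lower genes it was 0.0022601 for Homer2, 0.022854 for Slc4a11 and 0.039414 for Serpinb5. The level was highest with ATEVs in both libraries for Psmb8, Iigp1, Tgtp2 and Gbp5, and highest with DNase-treated ATEVs for Lcn2. For Homer2, Slc4a11 and Serpinb5 it was lowest with ATEVs in both libraries. Groups of 2 libraries were too small to look for single outlying libraries.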

How the results depend on the processing

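With DESeq2's size factors or upper-quartile factors in edgeR, the 5 counts of calls stayed within 1.5 times. Of the 611 protein-coding calls, 583 were shared with the former and 524 with the latter. In the order called higher, called lower, common higher and common lower, the counts became 1124, 728, 449 and 177 with DESeq2, 942, 655, 471 and 229 with no filter on low counts, and 152, 69, 87 and 35 with protein-coding genes fitted alone. They became 190, 96, 101 and 36 with the GC offset, 123, 59, 95 and 41 with the ATEV group left out, and 151, 54, 105 and 41 with the DNase-treated ATEV group left out. Without the NTEV group, 161 were called lower and 294 were common rises, and with 2 groups 174 were called higher. Genes differing among EV kinds were 633 with DESeq2, 526 with no filter, 7 without the ATEV group and 81 without the NTEV group. Where the largest of a gene's 3 p-values, 1 per EV kind, was adjusted and had to be under 0.05, 1 rise and 4 falls were left. Requiring at least 2-fold for each kind left 86 common rises and 29 common falls. Leaving out each library in turn gave 4 to 383 called higher, 3 to 264 called lower, 2 to 223 common rises, 3 to 133 common falls and 88 to 149 genes differing among EV kinds.

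With the replicate block the test called 711 higher and 688 lower, with 301 and 217 common. The numbers name libraries only. Deviations of same-numbered libraries correlated at 0.60 to 0.66 between EV groups and at -0.28 to -0.16 between PBS and EV groups. A crossed pairing was not run. Among named genes that were called, 1 changed direction: H2-DMa, at a log2 fold change of 1.99, had -0.032 without the ATEV group (edgeR adjusted p = 0.970). The causes were not tested.

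Only 2 libraries per group and 4 residual degrees of freedom limit each call, and the PBS arm decides most of them. With 1 PBS library left, that library is assumed to vary like the other groups. Genes with few PBS counts have ratios known only within wide counting intervals.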

Other observations

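Among pseudogenes tested, all 7 with at least 50% of their 31-base words in mitochondrial transcripts were lower with EVs, with a median log2 fold change of -6.41 and a range of -7.44 to -4.80. Gm28661 was at 36.2 and 17.7 CPM with PBS and 0.124 to 0.345 with EVs. Protein-coding genes were called lower more often where more of their words also occur in pseudogenes: 1.61% of those with 0% of words, 2.36% of those above 0% and under 10%, 4.91% of those from 10% to under 50%, and 7.81% of those with 50% or more. Among the named common rises and falls these shares were 37.1% for Sp140, 23.5% for Hmgn5, 21.95% for Idi1 and 5.57% for Lypla1, and 0% for Lars2. Words shared with mitochondrial transcripts were counted for pseudogenes only, and not for protein-coding genes, Lars2 included. Their part in the calls was not tested.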
